A study of Mus musculus with 8 samples.

Results

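The 34 genes examined encode aminoacyl-tRNA synthetases, 18 of them cytosolic enzymes and 16 mitochondrial ones. They were taken by symbol from the 26667 rows of the deposited count table, and all 34 were found and passed the filter on low counts. The counts come from hind limb undifferentiated pleomorphic sarcomas (UPS) of mice, 4 from KP animals (KP 5 to KP 8) and 4 from KPH2 animals (KPH2 1 to KPH2 4), with 1 RNA-seq library per tumour. KP mice carry Trp53 fl/fl alleles, and KPH2 mice carry these and Epas1 fl/fl, all on a mixed 129/C57BL/6 background. Epas1 encodes the hypoxia-inducible factor subunit HIF-2α. Tumours were induced by injecting Cre-expressing adenovirus into the gastrocnemius muscle, so that only cells the virus reached, and their descendants, can recombine the alleles. Any other cells in the same section keep Epas1, and which cell types these are was not measured here. RNA was taken from formalin-fixed, paraffin-embedded (FFPE) sections and depleted of ribosomal RNA. By the study's methods the animals were injected at an age of at least 8 weeks and their tumours taken 7 weeks later or at a size limit. In the study a knockout tumour was set aside on technical grounds, and KPH2 1 is the tumour missing from the deposited table of 7 normalized libraries. Fold changes below are therefore for KPH2 2 to KPH2 4 against KP 5 to KP 8 unless all 8 tumours are named, and KPH2 1 is shown apart.

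Aminoacyl-tRNA synthetases attach each amino acid to its tRNA, and so supply the charged tRNAs that ribosomes read. Cytosolic and mitochondrial ribosomes draw on separate enzymes for most amino acids, all made from nuclear genes, with a final 2 in most symbols of the mitochondrial enzymes. Gars and Kars are exceptions, since a single gene serves both compartments for glycine and lysine. Many cytosolic synthetase genes are known targets of ATF4, the transcription factor of the amino acid response, which binds C/EBP-ATF elements near their start sites. ATF4 also responds to mTORC1, the growth-controlling kinase complex that the study examined in these tumours. In bulk tumour RNA, fewer cells of a type and less RNA per cell cannot be told apart.

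Promoters of the members were searched for this element. RefSeq promoters of GRCm38.p6, from 250 bases before to 50 bases after a start site, were matched for 24 of the 34 members (25 promoters), and no promoter was used for Cars, Hars, Hars2, Lars, Mars, Nars, Pars2, Rars, Vars and Wars. The letters TGATGNAA, a core of the C/EBP-ATF element, were searched on both strands and occurred in 3.97% of 32851 mouse promoters of this length. They occurred in 5 of the 10 cytosolic members with a promoter and in 0 of the 14 mitochondrial ones, and these 5 (Aars, Gars, Iars, Tars and Yars) are among the 12 members listed here as ATF4-responsive, 7 of which had a promoter. Their 200 bases from 150 before to 50 after the start site are printed 5′ to 3′ on the gene's strand, with each match in capitals. They lie at chr8:111033692-111033891 (Aars), chr6:55037851-55038050 (Gars), chr13:49681980-49682179 (Iars), chr15:11399609-11399808 (Tars, minus strand) and chr4:129189753-129189952 (Yars). The 300 bases of Wars2 at chr3:99140840-99141139, without a match to these letters, are shown because Wars2 was the member that passed the test between the groups.
Aars: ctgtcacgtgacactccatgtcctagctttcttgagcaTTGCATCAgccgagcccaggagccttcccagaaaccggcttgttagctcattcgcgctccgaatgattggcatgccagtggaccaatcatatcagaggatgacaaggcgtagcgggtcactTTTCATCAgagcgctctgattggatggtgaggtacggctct
Gars: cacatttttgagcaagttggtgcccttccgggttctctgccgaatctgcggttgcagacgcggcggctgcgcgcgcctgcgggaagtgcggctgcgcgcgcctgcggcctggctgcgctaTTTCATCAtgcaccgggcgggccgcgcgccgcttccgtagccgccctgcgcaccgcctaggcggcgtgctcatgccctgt
Iars: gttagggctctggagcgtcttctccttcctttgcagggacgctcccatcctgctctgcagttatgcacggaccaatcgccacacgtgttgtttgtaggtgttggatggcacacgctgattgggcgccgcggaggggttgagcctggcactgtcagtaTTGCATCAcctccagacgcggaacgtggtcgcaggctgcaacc
Tars: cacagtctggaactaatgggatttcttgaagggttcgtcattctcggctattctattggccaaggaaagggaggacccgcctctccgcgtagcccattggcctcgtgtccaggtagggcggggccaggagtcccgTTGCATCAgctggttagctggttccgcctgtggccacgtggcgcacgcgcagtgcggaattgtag
Yars: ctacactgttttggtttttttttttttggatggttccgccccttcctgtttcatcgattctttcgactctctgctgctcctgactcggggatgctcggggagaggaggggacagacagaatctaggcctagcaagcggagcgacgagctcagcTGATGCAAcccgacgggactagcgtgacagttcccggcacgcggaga
Wars2: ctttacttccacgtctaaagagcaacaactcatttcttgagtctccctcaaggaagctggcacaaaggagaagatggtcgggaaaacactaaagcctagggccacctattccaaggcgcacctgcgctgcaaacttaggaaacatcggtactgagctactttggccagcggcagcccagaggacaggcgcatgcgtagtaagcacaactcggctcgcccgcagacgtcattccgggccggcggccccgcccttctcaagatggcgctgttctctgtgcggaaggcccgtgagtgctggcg
The first base of the match stood at position 3 after the start site in Yars, 7 in Iars, and 9 in Aars, and before it at −15 in Tars, −30 in Gars and −112 in Aars, which had a pair of matches. The letters ACGTG, a form of the core that HIF heterodimers bind, were searched on both strands too, did not overlap the first motif, and occurred in 19.6% of all promoters and in 9 of the 24 members, 5 cytosolic and 4 mitochondrial, Wars2 among them at −241. The related letters GCGTG occurred in 32.4% of promoters and in 18 members. A match describes letters in this window and is not a bound site.

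Library totals ran from 6463221 to 13155510 counts, and the members other than Lars2 had between 32 counts (Sars2 in KP 6) and 6985 counts (Eprs in KPH2 1) in a tumour. Values are given as counts per 1e+06 (CPM) of the library size after TMM normalization, a scaling of libraries to a common composition. Epas1, the deleted gene, was counted at 59.2, 83.2, 86.9 and 84.1 CPM in KP 5 to KP 8, at 32.6 CPM in KPH2 1, and at 53.4, 37.7 and 42.5 CPM in KPH2 2 to KPH2 4. All 4 KPH2 tumours lay below all 4 KP tumours, with a log2 fold change of −0.81 (SE 0.19, adjusted p = 0.0742 in the quasi-likelihood test of edgeR). Skeletal muscle markers moved with the groups: the summed level of 29 tested markers ran from 1883 to 3437 CPM in KP tumours, from 4403 to 19914 CPM in KPH2 2 to KPH2 4, and was 1552 CPM in KPH2 1. None of these 29 was at 0 in any tumour, and all 29 had a fold change above 0 with a median of 2.12 on the log2 scale. Macrophage markers lay the other way, with 0 of 10 above 0, a median of −0.58, and summed levels of 2420 to 4442 CPM in KP, 1775 to 2656 CPM in KPH2 2 to KPH2 4 and 2299 CPM in KPH2 1. Endothelial markers had 7 of 8 below 0 with a median of −0.58, and Pecam1, Kdr and Esam were lower in all 4 KPH2 tumours than in any KP tumour, with summed levels of 309.5 to 604 CPM in KP, 314 to 321 CPM in KPH2 2 to KPH2 4 and 229.7 CPM in KPH2 1. Of 9 mesenchymal markers 7 were below 0 (median −0.30), and Pdgfra fell by 2.02 on the log2 scale (SE 0.27, edgeR adjusted p = 0.0183). The part of any of these cell types in the values below was not tested. Some fits below hold a muscle score, the mean log2 CPM of the muscle markers, as a term. Over the 29 tested markers this mean ran from 3.57 to 4.69 in KP and from 4.90 to 7.24 in KPH2 2 to KPH2 4. The groups did not overlap in it, so muscle and genotype cannot be told apart in those fits.

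Levels were compared between genes as CPM per kilobase of exon. Exon lengths were taken from GENCODE, while the authors counted reads on RefSeq transcripts, so a level per kilobase depends on both annotations. Averaged over the 8 tumours, the 18 cytosolic genes ran from 20.9 (Wars) to 114 (Gars) CPM per kilobase, with a median of 39.9. The 15 mitochondrial genes other than Lars2 ran from 1.59 (Mars2) to 13.8 (Rars2) CPM per kilobase with a median of 5.42, so that the cytosolic median was 7.37 times the mitochondrial one and the ranges did not overlap. Lars2 stood at 4453 CPM per kilobase and is taken up last. Of the 12 amino acids with a separate member in each compartment (leucine left out), the cytosolic gene was the higher per kilobase in every tumour for all 12. The mean ratio ran from 2.86 for threonine (Tars over Tars2) to 22.7 for asparagine (Nars over Nars2). Together the cytosolic genes took 0.221% to 0.365% of all counts and the mitochondrial genes without Lars2 took 0.0319% to 0.0404%.

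**Figure D1:**
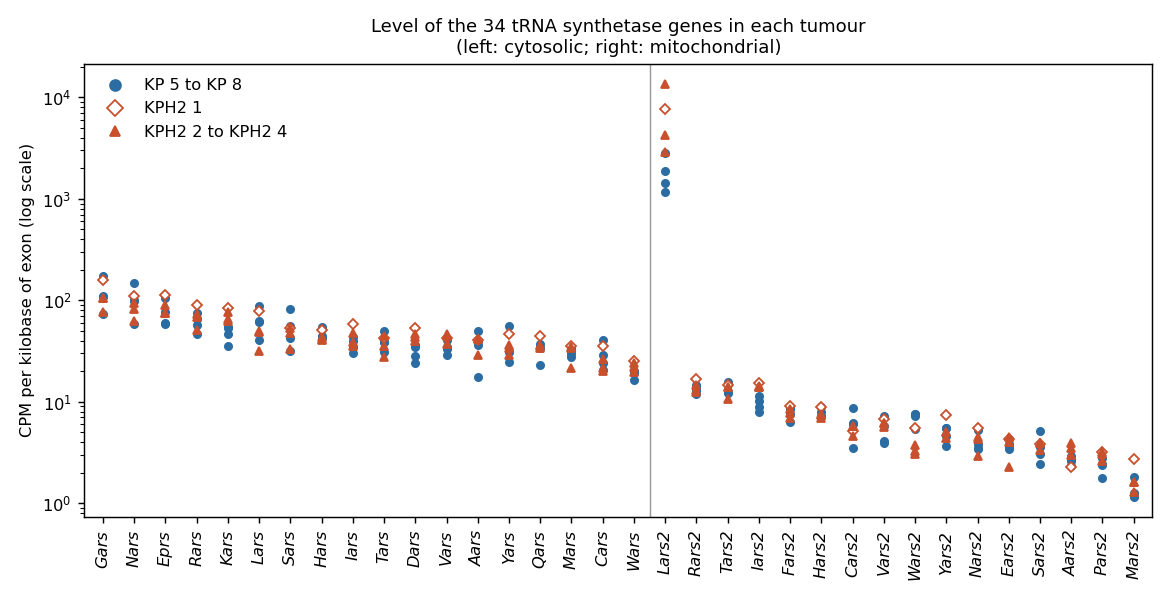
CPM per kilobase of exon (log axis) of each synthetase gene in each of the 8 tumours, cytosolic genes to the left of the line and mitochondrial genes to the right, each ordered by mean level. The cytosolic means run from 20.9 to 114 and the mitochondrial ones from 1.59 to 13.8, with Lars2 apart at 4453.

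Gars, the glycyl-tRNA synthetase of both compartments and the highest cytosolic member per kilobase, was counted at 175, 266, 410.4 and 255 CPM in KP 5 to KP 8, at 381 CPM in KPH2 1, and at 249.9, 181 and 249 CPM in KPH2 2 to KPH2 4. The highest tumour was KP 7, the lowest KP 5, and the KPH2 tumours lay inside the KP range. Rars2, the mitochondrial arginyl enzyme with the highest level per kilobase, stood at 23.8, 25.7, 27.3 and 22.3 CPM in KP, 31.6 CPM in KPH2 1 and 24.3, 27.3 and 23.4 CPM in KPH2 2 to KPH2 4. Its log2 fold change was 0.015 (SE 0.15) and changed sign when KP 8 (−0.036) or KPH2 3 (−0.051) was left out. Mars2, the mitochondrial methionyl enzyme with the lowest level per kilobase, stood at 14.1, 13.2, 13.8 and 20.5 CPM in KP, 30.5 CPM in KPH2 1 and 18.5, 14.4 and 18.3 CPM in KPH2 2 to KPH2 4. KP 8 and KPH2 1 were the high tumours, the groups overlapped, and the log2 fold change was 0.14 (SE 0.22). The rank of Mars2 rests on 11294 exon bases in GENCODE, while its RefSeq gene spans only positions 55237177 to 55240058 of chromosome 1. In CPM it was not the lowest, since Sars2 had a KP mean of 6.61 CPM against 15.4 CPM for Mars2.

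Between KPH2 and KP tumours, 1 of the 34 synthetase genes, Wars2, was called at a threshold of 0.05 in the quasi-likelihood test of edgeR, with p-values adjusted by the Benjamini-Hochberg method across 14867 genes. Of all genes tested, 1.96% were called in either direction and 0.72% were called lower in KPH2, the direction of Wars2. At an unadjusted p of 0.05 there were 5 members, or 14.7%, against 17.8% of all genes. The 18 cytosolic genes split evenly, 9 above 0 (48% of all genes were) and 9 below, with a median log2 fold change of 0.012 and a range from −0.55 to 0.52. With the muscle score as a term this median was 0.36. The 15 mitochondrial genes without Lars2 had 7 above and 8 below 0, with a median of −0.0031 and a range from −1.04 to 0.55. The median over all genes tested was −0.018. For 30 of the 34 members the 95% interval of the fold change lay within a 2-fold change in either direction, the exceptions being Lars, Nars, Wars2 and Lars2. Over all 8 tumours the medians were 0.061 for cytosolic and 0.11 for mitochondrial genes, beside 0.0074 for all genes, and no member was called, where 0.00675% of genes were (1 of 14805).

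**Figure D2:**
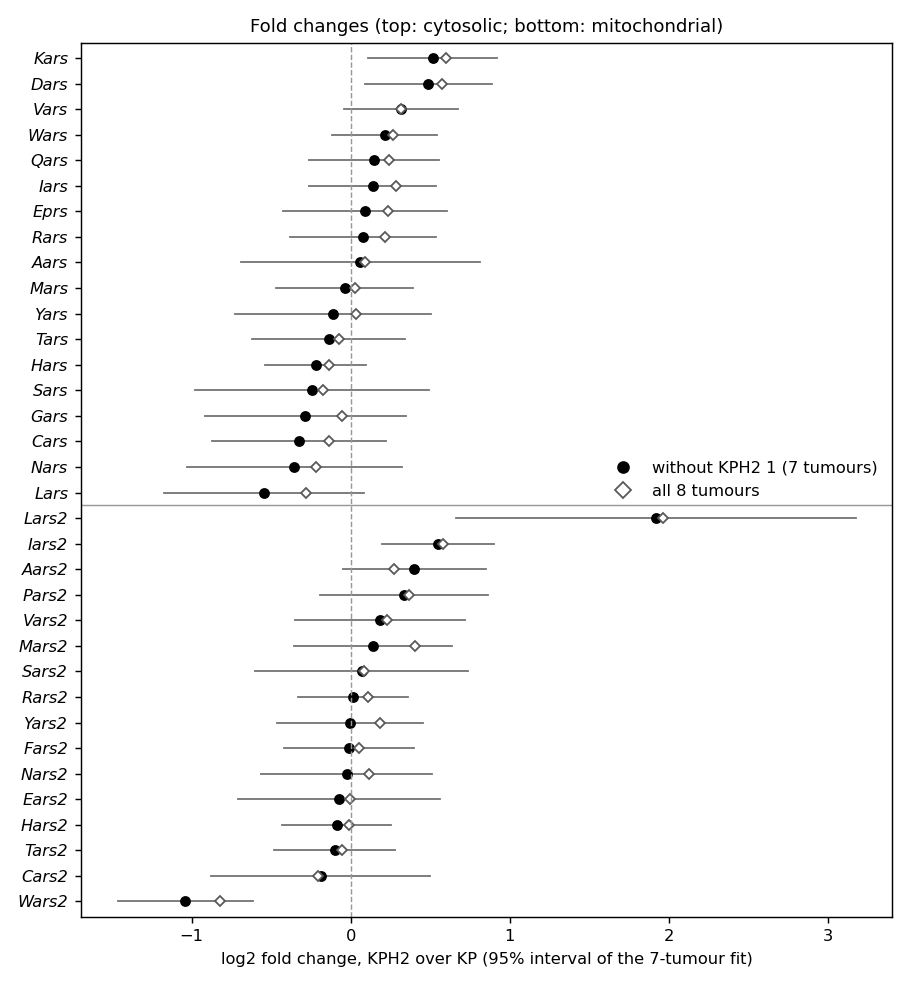
Log2 fold change of each member, KPH2 over KP, without KPH2 1 (filled, with the 95% interval) and over all 8 tumours (open), cytosolic genes above the line and mitochondrial genes below it. The interval of Wars2 lies below 0, those of Kars, Dars, Iars2 and Lars2 lie above 0, and the other 29 span 0.

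Wars2 encodes the mitochondrial tryptophanyl-tRNA synthetase (Entrez Gene 70560, chromosome 3 of GRCm38, 99140107 to 99221230). It was counted at 23.5, 33.1, 33.7 and 31.8 CPM in KP 5 to KP 8, at 24.4 CPM in KPH2 1, and at 13.6, 16.5 and 14.4 CPM in KPH2 2 to KPH2 4. KPH2 2 to KPH2 4 lay below every KP tumour, and KPH2 1 lay inside the KP range, just above KP 5. The mean fell from 30.5 ± 4.72 CPM (SD, n = 4) to 14.8 ± 1.5 CPM (SD, n = 3), a log2 fold change of −1.04 (SE 0.19, adjusted p = 0.0354 from edgeR). With KPH2 1 included the log2 fold change was −0.82 (SE 0.22, adjusted p = 0.170 from edgeR), so the call did not hold over all 8 tumours. When single tumours were left out of the 7, its log2 fold change ran from −1.14 to −0.98 and the edgeR adjusted p from 0.0271 to 0.132, and it was called only without KP 5. With the muscle score as a term its log2 fold change was −0.97 (SE 0.34, edgeR adjusted p = 0.512), and the part of muscle was not tested. Its cytosolic counterpart Wars stood at 55.0, 47.3, 58.3 and 56.7 CPM in KP, 72.3 CPM in KPH2 1 and 63.4, 56.7 and 69.2 CPM in KPH2 2 to KPH2 4, with overlapping groups and a log2 fold change of 0.21 (SE 0.14, edgeR adjusted p = 0.491). The ratio of Wars to Wars2 in CPM was 2.34, 1.43, 1.73 and 1.78 in KP tumours, 2.96 in KPH2 1 and 4.66, 3.44 and 4.80 in KPH2 2 to KPH2 4. All 4 KPH2 tumours were above all 4 KP tumours in this ratio, which was examined after the values of Wars2 were seen.

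Over all 8 tumours, 4 members (Kars, Dars, Iars2 and Lars2), or 11.8%, lay above every KP tumour in every KPH2 tumour, beside 3.76% of all genes, and 0 lay below, beside 4.39%. With Lars2 set apart, 3 of 33 members, or 9.09%, lay above. Without KPH2 1 they were 5, or 14.7%, with Aars2 added (12.1% with Lars2 set apart), beside 8.73%. In that comparison 1 member lay below (Wars2), or 2.94%, beside 8.15%. None of the 4 passed the adjusted threshold in edgeR. Iars2, the mitochondrial isoleucyl enzyme, was counted at 76.0, 53.2, 68.2 and 59.9 CPM in KP 5 to KP 8, at 103 CPM in KPH2 1, and at 94.8, 94.0 and 93.8 CPM in KPH2 2 to KPH2 4. The last 3 tumours, with 1053, 939 and 832 counts, had an SD of 0.538 CPM (n = 3) against 9.93 CPM (n = 4) in KP. An SD from 3 values is imprecise, and the difference in spread was not tested. KPH2 1 was the highest of the 8. The log2 fold change of Iars2 was 0.55 (SE 0.15, edgeR adjusted p = 0.117, and 0.0462 by DESeq2), and its exons overlap those of Rab3gap2 on the opposite strand.

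Kars, the lysyl-tRNA synthetase of both compartments, stood at 80.1, 124, 105 and 119.9 CPM in KP 5 to KP 8, at 191 CPM in KPH2 1, and at 172, 141 and 147 CPM in KPH2 2 to KPH2 4. All KPH2 tumours lay above KP 6, the highest KP tumour, and KPH2 1 was the highest of the 8. Its log2 fold change was 0.52 (SE 0.18, edgeR adjusted p = 0.183), and 0.60 (SE 0.17, edgeR adjusted p = 0.188) over all 8 tumours. Dars, the cytosolic aspartyl enzyme, stood at 89.6, 58.9, 69.5 and 85.4 CPM in KP, 133 CPM in KPH2 1 and 115, 98.5 and 106 CPM in KPH2 2 to KPH2 4. The groups did not overlap, and KPH2 1 was again the highest, with a log2 fold change of 0.49 (SE 0.17, edgeR adjusted p = 0.196) without it and 0.58 (SE 0.17, edgeR adjusted p = 0.197) with it. With the muscle score as a term the log2 fold changes without KPH2 1 were 0.28 (SE 0.28) for Dars, 0.63 (SE 0.32) for Kars and 0.45 (SE 0.27) for Iars2, with edgeR adjusted p-values of 0.903, 0.709 and 0.785. Both enzymes belong to the multisynthetase complex, in which 8 of the cytosolic enzymes are held on scaffold proteins. The 8 complex members had a median log2 fold change of 0.12, with 6 above 0 and 0 called, beside −0.018 for all genes. The scaffold genes Aimp1, Aimp2 and Eef1e1 had log2 fold changes of −0.095, −0.14 and −0.019.

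**Figure D3:**
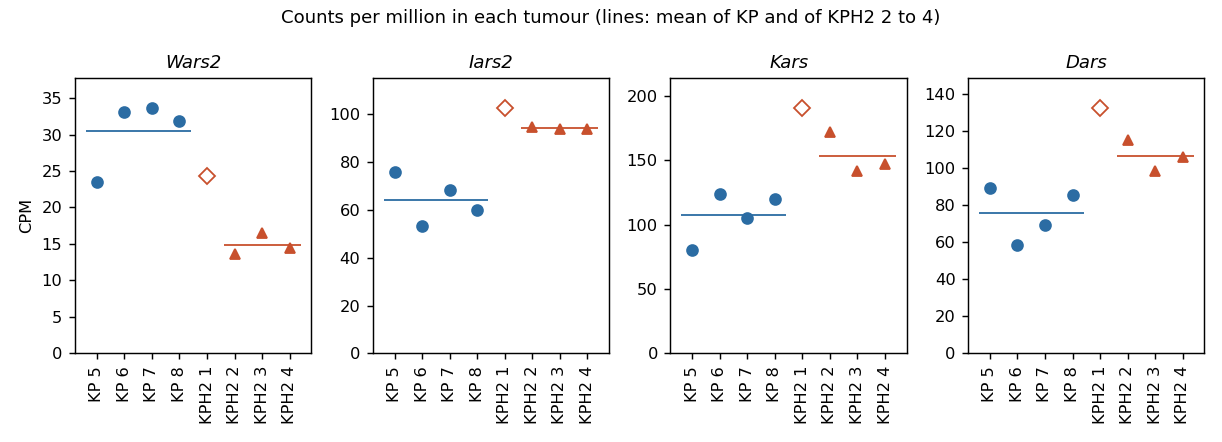
CPM of Wars2, Iars2, Kars and Dars in each tumour (linear axes from 0), with lines at the mean of the 4 KP tumours and of KPH2 2 to KPH2 4, and KPH2 1 as an open diamond. KPH2 1 lies with the KP tumours for Wars2, at 24.4 CPM, and above all others for Iars2, Kars and Dars.

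Other cytosolic members with the smallest p did not separate the groups. Vars, the valyl enzyme, stood at 167, 119.7, 142 and 136 CPM in KP, 176 CPM in KPH2 1 and 184, 155 and 191 CPM in KPH2 2 to KPH2 4, with KP 5 inside the KPH2 range (log2 fold change 0.32, SE 0.16, edgeR adjusted p = 0.334). Lars, the cytosolic leucyl enzyme, which has also been described as a leucine sensor for mTORC1, stood at 161, 243, 354 and 249 CPM in KP, 311 CPM in KPH2 1 and 192, 127 and 199 CPM in KPH2 2 to KPH2 4. KP 7 was the highest and KPH2 3 the lowest, and KP 5 lay inside the KPH2 range. Its log2 fold change was −0.55 (SE 0.28, edgeR adjusted p = 0.348), −0.28 over all 8 tumours, and 0.11 with the muscle score as a term. Hars, the histidyl enzyme, stood at 85.3, 89.3, 104 and 108 CPM in KP, 102 CPM in KPH2 1 and 86.5, 79.96 and 82.7 CPM in KPH2 2 to KPH2 4, with overlapping groups (log2 fold change −0.22, SE 0.14, edgeR adjusted p = 0.464). Hars and Hars2 share exon bases on opposite strands, as do Mars and Ddit3. The same holds for Yars and C77080, Ears2 and Ubfd1, Fars2 and Lyrm4, and Vars2 and Gm20483, beside Iars2 and Rab3gap2. Aars shares exon bases with Exosc6 on the same strand. The strand setting of the authors' counting is not given in the sources used here.

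Among the mitochondrial members, Aars2, the alanyl enzyme, stood at 9.73, 7.78, 8.75 and 8.98 CPM in KP, 7.67 CPM in KPH2 1 and 10.1, 13.1 and 11.8 CPM in KPH2 2 to KPH2 4. KPH2 2 to KPH2 4 lay above all KP tumours and KPH2 1 below them, and the log2 fold change of 0.40 (SE 0.20, edgeR adjusted p = 0.337) did not pass. Pars2, the prolyl enzyme, stood at 7.43, 5.38, 8.45 and 7.24 CPM in KP, 9.75 CPM in KPH2 1 and 8.01, 9.81 and 9.24 CPM in KPH2 2 to KPH2 4, with KP 7 inside the KPH2 range (log2 fold change 0.34, SE 0.23). Vars2, the valyl enzyme, stood at 32.2, 17.3, 25.4 and 18.3 CPM in KP, 29.7 CPM in KPH2 1 and 25.1, 27.2 and 27.2 CPM in KPH2 2 to KPH2 4. KP 5 was the highest tumour, the KPH2 tumours lay close together, and the log2 fold change was 0.18 (SE 0.24). With the muscle score as a term those of Aars2 and Vars2 were 0.26 (SE 0.34) and 0.066 (SE 0.40). The other 8 mitochondrial members had log2 fold changes between −0.19 (Cars2) and 0.070 (Sars2), and the other 12 cytosolic ones, Gars among them, between −0.35 (Nars) and 0.15 (Qars).

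Cytosolic synthetase levels also differed between tumours of the same genotype. The 12 members listed as ATF4-responsive (Aars, Cars, Eprs, Gars, Iars, Lars, Mars, Nars, Sars, Tars, Wars and Yars) had a mean log2 CPM of 6.86, 7.28, 7.79 and 7.31 in KP 5 to KP 8, 7.67 in KPH2 1, and 7.33, 6.94 and 7.37 in KPH2 2 to KPH2 4. The highest tumour exceeded the lowest 1.9-fold, both were KP tumours (KP 7 and KP 5), and the groups overlapped. A list of 20 other genes of the ATF4 response, Atf4 itself and targets such as Asns (asparagine synthetase), Trib3 and Psat1, had means of 4.76, 5.53, 6.32 and 5.58 in KP, 6.02 in KPH2 1, and 5.57, 4.75 and 5.65 in KPH2 2 to KPH2 4. KP 7 and KPH2 1 were the highest pair and KP 5 and KPH2 3 the lowest pair in both lists, which share no gene but are read from the same libraries. Between the groups, 0 of the 12 members and 0 of the 20 other genes were called, with medians of −0.12 and −0.33, which were −0.014 and −0.10 with KPH2 1 included. Within the second list, Atf4 stood at 77.2, 97.3, 157 and 96.1 CPM in KP, 97.7 CPM in KPH2 1 and 91.0, 68.7 and 68.3 CPM in KPH2 2 to KPH2 4, with overlapping groups (log2 fold change −0.49, SE 0.25, edgeR adjusted p = 0.352).

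The 6 cytosolic members outside that list (Dars, Hars, Kars, Qars, Rars and Vars) had mean log2 CPM of 6.63, 6.61, 6.79 and 6.72 in KP, 7.22 in KPH2 1 and 7.02, 6.80 and 6.95 in KPH2 2 to KPH2 4. The KPH2 tumours lay above the KP tumours, with KPH2 3 just above KP 7, and 5 of the 6 fold changes were above 0 with a median of 0.23. Only Kars and Dars among the 6 had groups without overlap, beside 3.76% of all genes higher without overlap over 8 tumours and 8.73% over 7, and the groups overlapped for Hars, Qars, Rars and Vars. The 15 mitochondrial members without Lars2 had means of 4.22, 4.08, 4.11 and 4.12 in KP, 4.41 in KPH2 1 and 4.16, 4.21 and 4.11 in KPH2 2 to KPH2 4, so that the highest tumour exceeded the lowest 1.26-fold. Single genes varied about as much in both compartments, with a median ratio of the highest to the lowest tumour of 1.87 for mitochondrial and 1.98 for cytosolic members, and the difference was not tested. KPH2 1 and KP 7 each held the highest value of 8 of the 18 cytosolic members, and of the 15 mitochondrial members KPH2 1 held the highest value of 7 and KP 7 of 1. The cytosolic mean exceeded the mitochondrial mean by 2.57 to 3.34 log2 units in KP, 3.11 in KPH2 1 and 2.69 to 3.12 in KPH2 2 to KPH2 4, with the KPH2 2 to KPH2 4 range inside that of KP.

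**Figure D4:**
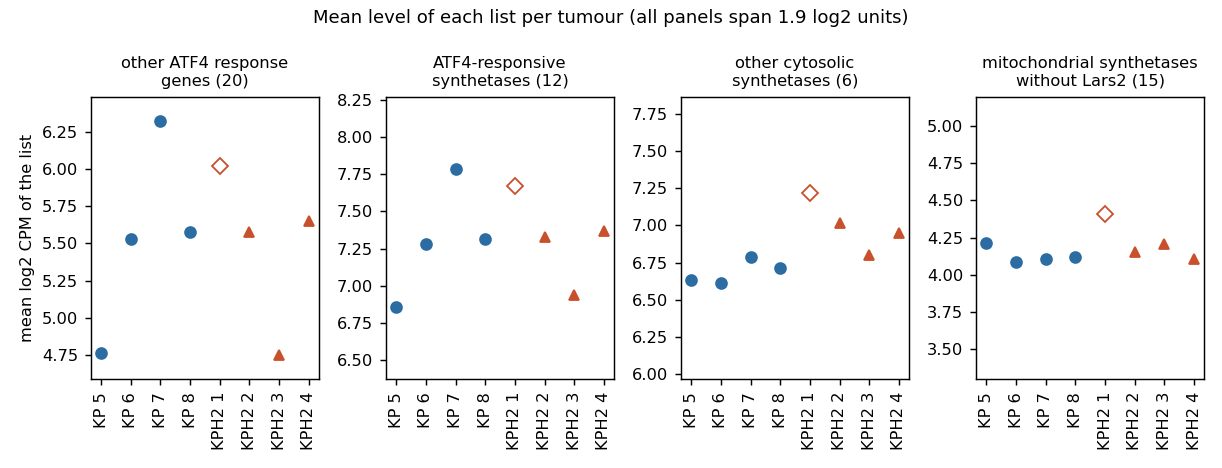
Mean log2 CPM per tumour of 20 other ATF4 response genes (Atf4 included), the ATF4-responsive synthetases, the other cytosolic synthetases and the mitochondrial synthetases without Lars2, all panels spanning 1.9 log2 units. KP 7 and KPH2 1 are high and KP 5 and KPH2 3 low in the left pair of panels, and the mitochondrial panel is the flattest, from 4.08 to 4.41.

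Genes that work beside the mitochondrial synthetases were read from a list of 9 tested genes for other mitochondrial charging and tRNA modification steps, of which 0 were called. Trmt5, a tRNA methyltransferase, stood at 9.73, 8.49, 10.7 and 12.8 CPM in KP, 18.8 CPM in KPH2 1 and 16.3, 17.9 and 17.0 CPM in KPH2 2 to KPH2 4 (log2 fold change 0.71, SE 0.20, edgeR adjusted p = 0.115). Gtpbp3, which modifies mitochondrial tRNAs, stood at 11.4, 13.2, 14.2 and 14.1 CPM in KP, 15.2 CPM in KPH2 1 and 18.2, 22.5 and 19.05 CPM in KPH2 2 to KPH2 4 (log2 fold change 0.59, SE 0.17, edgeR adjusted p = 0.129). For both genes all 4 KPH2 tumours lay above all 4 KP tumours, and this pair was chosen with its values known. The list's median was −0.040, with 4 genes above 0 and 5 below. Mitochondrial translation factors (9 tested, median 0.11) and other cytosolic charging genes (12 tested, median −0.00014) held 0 called genes. Among the 6 cytosolic elongation factors 0 were called, and Eef1a2, the form of skeletal muscle and neurons, had the largest value of 1.70 (SE 0.63, edgeR adjusted p = 0.211).

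Lars2, the mitochondrial leucyl-tRNA synthetase (Entrez Gene 102436, chromosome 9 of GRCm38, 123366927 to 123462675), did not behave like the other members. It was counted at 4513, 5559, 10955 and 7299 CPM in KP 5 to KP 8, at 30019 CPM in KPH2 1, and at 52393, 16648 and 11338 CPM in KPH2 2 to KPH2 4. Every KPH2 tumour lay above every KP tumour, by a small margin between KPH2 4 and KP 7, and KPH2 2 was the highest by far. Lars2 took 0.462% to 4.68% of all counts in a library. Its log2 fold change was 1.92 (SE 0.55, edgeR adjusted p = 0.122) and 1.96 (SE 0.50, edgeR adjusted p = 0.163) over all 8 tumours. DESeq2 gave an adjusted p of 0.00339, and without KPH2 2 the log2 fold change was 0.98 with an edgeR adjusted p of 0.318.

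The rows of ribosomal RNA moved with it. Rn45s, the ribosomal RNA precursor, stood at 22200, 9855, 29240 and 21041 CPM in KP, 70162 CPM in KPH2 1 and 110009, 50175 and 34405 CPM in KPH2 2 to KPH2 4. Rn18s, the small subunit RNA, stood at 287, 253, 909 and 430.0 CPM in KP, 3697 CPM in KPH2 1 and 6342, 1694 and 996 CPM in KPH2 2 to KPH2 4. Both rows had KPH2 2 and KPH2 1 highest, as Lars2 did, and neither passed the threshold (log2 fold changes 1.65 and 2.68, edgeR adjusted p = 0.124 and 0.0994). The ratio of Lars2 to Rn45s was 0.203, 0.564, 0.375 and 0.347 in KP, 0.428 in KPH2 1 and 0.476, 0.332 and 0.330 in KPH2 2 to KPH2 4, with the KPH2 tumours inside the KP range. The ratio of Lars2 to Rn18s was 15.7, 22.0, 12.1 and 17.0 in KP, 8.12 in KPH2 1 and 8.26, 9.83 and 11.4 in KPH2 2 to KPH2 4, where the groups did not overlap and KPH2 was the lower. The other 4 tested rows of the same list were not alike, with log2 fold changes of −0.045 (SE 0.21) for Rn7sk, −0.012 (SE 0.29) for Rmrp, 0.64 (SE 0.47) for Rpph1 and 1.18 (SE 0.40) for Mir5105, none of them called. The groups overlapped for the first 3, while Mir5105 stood at 139 to 538 CPM in KP, 696 CPM in KPH2 1 and 833 to 1050 CPM in KPH2 2 to KPH2 4.

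**Figure D5:**
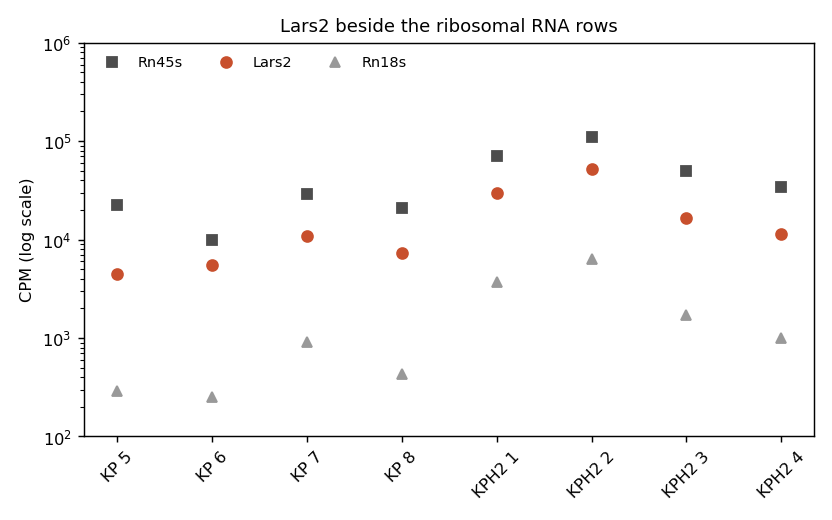
CPM of Lars2 and of the ribosomal RNA rows Rn45s and Rn18s in each tumour, on a log axis. The 3 rows are highest in KPH2 2, at 52393 CPM for Lars2, and next highest in KPH2 1.

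By Spearman correlation with Lars2 over the 8 tumours and 14804 other genes, the most alike rows were Tecr and Fam96b, both at 1, followed at 0.976 by Rn18s, March9, Gtf3c5, Oxnad1, Cox4i1 and E2f4. These 8 rows were the only ones at 0.976 or above, and all points share libraries and normalization. Of them, Rn18s also had the highest Pearson correlation of log2 CPM, 0.991. The Lars2 transcript of 3894 bases ends in a 3′ untranslated region of 989 bases. A search of the reference transcripts, in the same orientation only, found matches there to AA474408 (80.1% identity over 196 bases) and to Gm15564 (98.6% over 72 bases). Shorter matches in this region were to Ifitm10 (82.9% over 70 bases), Phka1 (88.2% over 51 bases) and Eif2b3 (79.7% over 69 bases). AA474408 stood at 3.61 to 7.27 CPM, highest in KPH2 1 and lowest in KPH2 4. The sequence of Rn45s was not compared with Lars2 here, so the part of ribosomal RNA reads in its count was not tested. With the ribosomal RNA rows and Lars2 removed before normalization, the medians of the other members were 0.020 for the cytosolic and 0.0045 for the mitochondrial genes, and Wars2 was still the only member called.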

How the data were processed

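RNA from FFPE sections of 8 UPS tumours was prepared with a stranded kit after ribosomal RNA depletion and sequenced, 1 library per tumour. Per the submitters' processing notes and the study's methods, the authors used STAR 2.4 for alignment to GRCm38 and HTSeq 0.6.1 to count uniquely placed reads on RefSeq transcripts. The authors deposited raw counts for 8 tumours, and log2 values from the regularized log transformation (rlog) of DESeq2, over 7 and over 8 tumours, which shrink low counts toward their mean. Groups follow the labels, where KPH2 tumours are given as Epas1 -/-. A further allele that both groups share is not reported here. Nothing says that each tumour came from a separate litter, so p-values measure the spread between these tumours.

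Counts were fitted in R 4.3.3 with edgeR 4.0.16 over the whole table (filter: minimum count 10, minimum total 15; TMM; robust quasi-likelihood test; no covariate), KP 5 to KP 8 against KPH2 2 to KPH2 4, with Benjamini-Hochberg adjustment over 14867 genes and a threshold of 0.05. CPM use TMM library sizes over 8 tumours, and log2 CPM a prior count of 2. Scripts were tested on simulated data. The biological coefficient of variation was 0.313, which limits the precision of every fold change.

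Members and gene lists were chosen with earlier results of these data known. Named with values in every tumour are the called members, the 6 of each compartment with the smallest p, those whose 8 tumours do not overlap, the highest and lowest per kilobase, and Lars2. Alternatives were all 8 tumours, leaving out each of the 7 tumours, RLE or upper-quartile scaling, removal of ribosomal RNA rows, no filter or a mean count of at least 50, the muscle score (mean log2 CPM of the markers) as a term, no robust estimates, DESeq2 1.42.0, and limma 3.58.1 on the rlog values.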

Additional observations from a re-analysis of the deposited data

Results flagged for a closer look

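The spread within the groups of 4 tumours was examined for 36 groups of values (the named members and 3 list means, in KP and in KPH2 tumours), where chance alone sets apart about 1 group in 20, and 3 groups had a tumour far from the others. For Wars2 in KP tumours, KP 5 lay below the other 3 by 0.845 of the range of log2 CPM. For Iars2 in KPH2 tumours, KPH2 1 lay above the other 3 by 0.882 of the range. For Mars2 in KP tumours, KP 8 lay above the other 3 by 0.843 of the range.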

How the results depend on the processing

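No paired analysis was possible because the groups share no replicate number. The call of Wars2 held under 9 of 18 alternatives. The number of called members was 0 over all 8 tumours, with limma on the rlog values of 8 tumours and with the muscle score as a term, 3 by DESeq2 (Iars2, Lars2 and Wars2), and 0 to 1 with a tumour left out. Over all genes, 292 were called, against 1 over all 8 tumours, 14 with limma on 8 tumours, 3 with the muscle score, 1175 by DESeq2, and 55 (without KPH2 2) to 349 with a tumour left out. The cytosolic median was 0.36 with the muscle score and ran from −0.12 to 0.19 with a tumour left out. The mitochondrial median without Lars2 was 0.11 over all 8 tumours, 0.081 with limma on 8 tumours, and −0.043 to 0.064 with a tumour left out. Lars2 passed by DESeq2 alone, at 1.93 (adjusted p = 0.00339), ran from 0.98 (without KPH2 2) to 2.29 with a tumour left out, and has no value where its row was removed. Directions turned for Rars2 without KP 8 (−0.036) and without KPH2 3 (−0.051), where leaving out a tumour gave up to 0.063, and for Lars (0.11) and Gars (0.36) with the muscle score. The cause of these changes was not tested. The other named members kept their direction under all alternatives.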
